A study of Homo sapiens with 9 samples.

Results

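The proteasome genes examined here are the protein coding genes whose symbol is PSM, one letter from A to G and digits. The rule uses symbols and no measured value, and both deposited tables listed 48 such genes among the 51105 genes they had in common. They comprised 8 PSMA and 11 PSMB genes of the core particle, 6 PSMC genes for the ATPases of the regulatory particle, 14 PSMD genes for its non-ATPase subunits and for some assembly factors, 4 PSME genes for activators, PSMF1, and 4 PSMG genes for assembly chaperones. Mean read counts were above 50 in both comparisons for 43 of them, namely 7 PSMA, 8 PSMB, 6 PSMC, 13 PSMD, 4 PSME, 1 PSMF and 4 PSMG genes, and these 43 could be called.

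The proteasome is the large protease that degrades proteins tagged with ubiquitin. Its barrel-shaped core stacks rings of alpha subunits, which form the gate, on rings of beta subunits, of which PSMB5, PSMB6 and PSMB7 carry the proteolytic sites. The regulatory particle binds and removes ubiquitin and feeds unfolded proteins into the core with its ring of ATPases. Because the subunits are needed in fixed proportions in every cell, their messages are counted among housekeeping mRNAs, and the transcription factor NFE2L1 is known to raise them together when proteasome activity is limiting.

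The samples were HEK293T cells, an established line from human embryonic kidney, with wildtype genotype and no treatment other than crosslinking in 0.1% formaldehyde for 10 min. The lysates of 3 biological replicates were each divided between antibodies against the nuclear poly(A) binding protein PABPN and the cytoplasmic protein PABPC, giving 3 input, 3 PABPN RIP and 3 PABPC RIP libraries of total RNA depleted of rRNA. All 3 groups shared the cell line and the crosslinking, and 1 cell line is the limit of the model. A pulldown with a control antibody was not analysed here. Reads counted on the listed genes came to an estimated 36.5 to 52.2 M per library, which leaves out reads that were not counted. Markers known from this line were well above 50 mean reads (VIM 13390 and NEFM 56820 normalised reads in input, on the scale of the PABPC comparison), while the white blood cell marker PTPRC stood at 0.444 and the hepatocyte marker ALB at 4.34.

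Each comparison of a RIP with input gave a log2 fold change and its standard error (SE) from DESeq2 over 3 against 3 libraries, as deposited by the authors, and all values below rest on that n. A gene was called enriched above 0.5 or depleted below -0.5, with an adjusted p of at most 0.01 and a mean of normalised reads over 50. Values of single libraries were not analysed here, so group means are given with the SE of the fold change, and whether single libraries of the groups overlap was not tested. In bulk RNA, fewer cells with a message and less of it per cell cannot be told apart. Reads in introns were counted with those in exons, so a fold change describes the spliced and unspliced RNA of a gene together.

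A poly(A) tail is added downstream of the hexamer AAUAAA or its variant AUUAAA. The last 50 bases of the GENCODE release 44 canonical transcript, written in DNA letters, held AATAAA or ATTAAA for 38 of the 43 members (88.4%) and for 82.1% of 12450 protein coding genes past the same read limit. AATAAA alone was present in 30 members (69.8%) and in 66.8% of the protein coding genes. The 5 members with neither were PSMB2, PSMB5, PSMC4, PSMD9 and PSMG1. The windows of 6 members are shown as examples, chosen by their values in the RIPs. PSMB6 had the lowest difference between the RIPs, and PSMG3 was enriched with both proteins. PSMD1 and PSMD14 were depleted from both, and PSME4 and PSMG4 were depleted from PABPC only. Each window lies at the end of the last exon of its gene and is the RNA strand from 5′ to 3′, with the hexamer in capitals.
PSMB6: caaaatttAATAAAgtttgtcacagagaa
PSMG3: tcttttttATTAAAagcgaatgtgtatccc
PSMD1: gggtttttAATAAAtgtatctaatcctccc
PSMD14: acttacaaAATAAAatacatttacagtcta
PSME4: taaaacccAATAAAtggattctttttaa
PSMG4: caattagaATTAAAgtgatgtataaatatg
The hexamer began 21 bases before the end of the transcript in PSMB6, 26 in PSMG3, 42 in PSMD1, 22 in PSMD14, 20 in PSME4 and 22 in PSMG4. Members depleted from both proteins and the member with the widest difference between them all held AATAAA, as most members did. PSMG3 and PSMG4 held ATTAAA, PSMG2 held AATAAA and PSMG1 neither. ATTAAA was also held by PSMA5, PSMB1 and PSMD7, which were depleted from PABPN and enriched with PABPC. PSMA3, PSMC1 and PSMF1 held it too, and these were depleted from PABPN but not called with PABPC. Whether the hexamer goes with the calls was not tested.

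The first question was how the proteasome messages divided between the proteins. In the PABPN comparison 31 of the 43 members were depleted (72.1%) and 1 was enriched. In the background of all features, 14.6% of 15526 genes were depleted and 17.5% enriched, and among 12799 protein coding genes 16.5% were depleted and 15.1% enriched. In the PABPC comparison 32 members were enriched (74.4%) and 4 were depleted. The background was 38.4% enriched and 32.4% depleted of 14843 genes, and 41.2% and 27.9% of 12582 protein coding genes. Members were therefore depleted from PABPN, and enriched with PABPC, in larger shares than the tables as a whole. The counts depended on the limit of 0.5. A log2 cut-off of 1 left 11 members depleted from PABPN, 0 depleted from PABPC and 24 enriched with PABPC. In the same order, a Wald test of a change beyond 0.5 left 13, 0 and 26. The shares over all features at these 2 settings were not computed.

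The median log2 fold change of the members was -0.82 with PABPN and 1.10 with PABPC. The medians over all features were -0.041 and 0.14, and those over protein coding genes -0.087 and 0.25. The fold change was below 0 with PABPN in 39 members and above 0 with PABPC in 39 members, whether or not the gene was called. In 25 members the calls were opposite, depletion from PABPN and enrichment with PABPC, a pattern found in 10.8% of the 12452 protein coding genes that could be called in both. PSMG3 was enriched with both (7.24% of protein coding genes), PSMD1 and PSMD14 were depleted from both (2.50%), and PSMB7, PSMC6 and PSMG2 were called in neither. The remaining 12 members were called in 1 of the comparisons only. The plot of fold changes by subunit family shows every member.

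**Figure D1:**
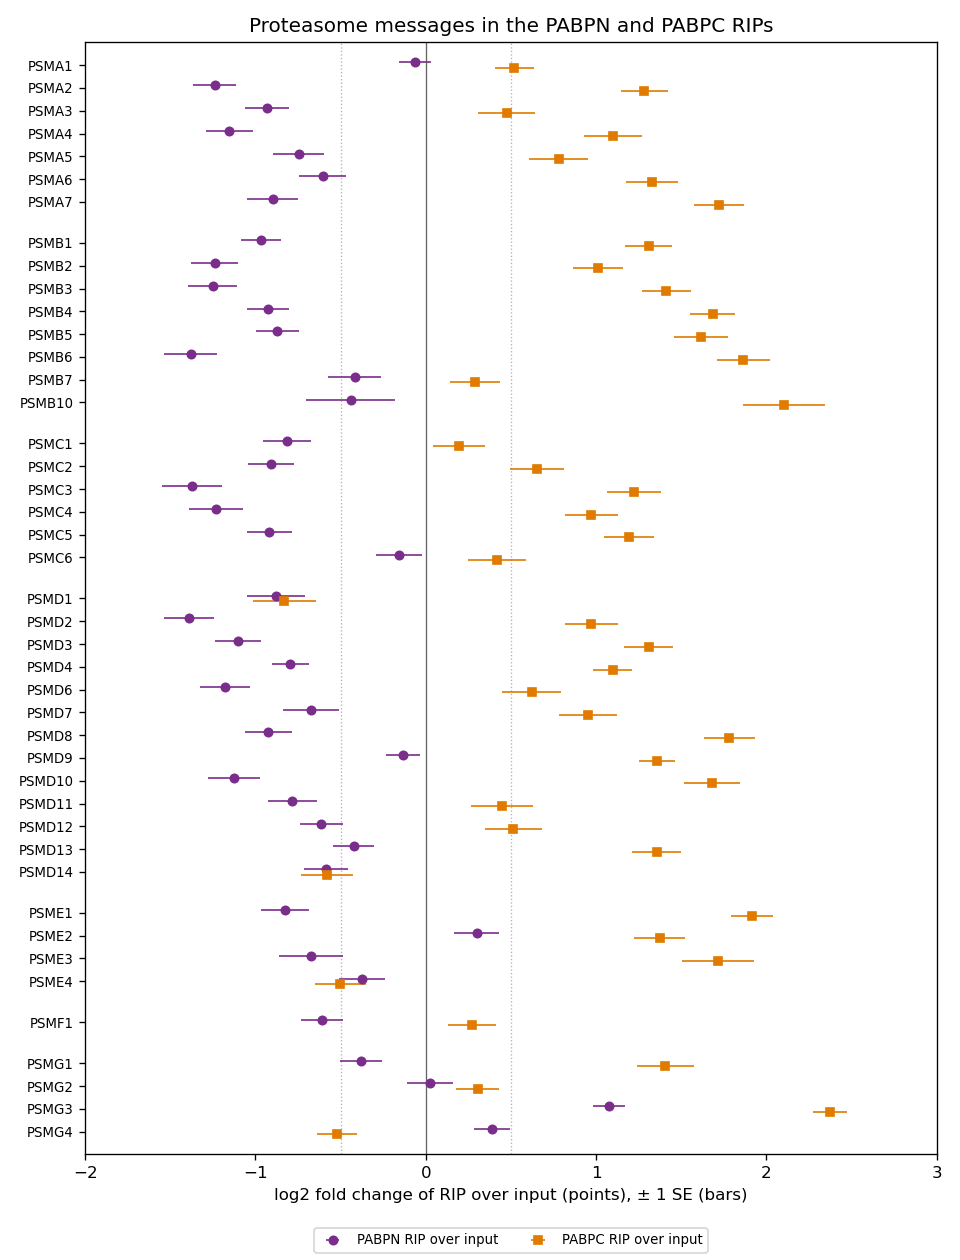
Log2 fold change of RIP over input for the 43 members with mean reads above 50 in both comparisons, grouped by family; circles are PABPN, squares PABPC, bars 1 SE (3 against 3 libraries), and dotted lines mark -0.5 and 0.5. Most members lie left of 0 with PABPN and right of 0 with PABPC, while PSMD1, PSMD14 and PSME4 lie left of 0 with both and PSMG3, PSME2 and PSMG2 right of 0 with both.

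The difference between the RIPs was then tested for each gene, as the log2 fold change with PABPN minus that with PABPC, with a two-sided normal test and Benjamini-Hochberg adjustment over 14581 genes. A gene was called with a difference beyond 0.5 and an adjusted p of at most 0.01. The call was higher with PABPC in 37 members (86.0%) and higher with PABPN in 1 member, PSMG4. Over all features 33.4% were higher with PABPC and 36.1% higher with PABPN, and over 12452 protein coding genes 37.8% and 30.6%. The median difference was -1.80 for the members, 0.068 for all features and -0.12 for protein coding genes. Not called were PSMC6, PSMD1, PSMD14, PSME4 and PSMG2. Their differences and 95% intervals were -0.57 (-1.0 to -0.15) for PSMC6, -0.051 (-0.55 to 0.44) for PSMD1 and -0.0051 (-0.40 to 0.39) for PSMD14. PSME4 stood at 0.13 (-0.26 to 0.52) and PSMG2 at -0.28 (-0.64 to 0.083). Both comparisons use the same input libraries, which makes the error used here too wide rather than too narrow. With the variance of the shared input taken out, or with the difference centred on its median over all genes, PSMC6 was called as well, which gave 38 members higher with PABPC.

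**Figure D2:**
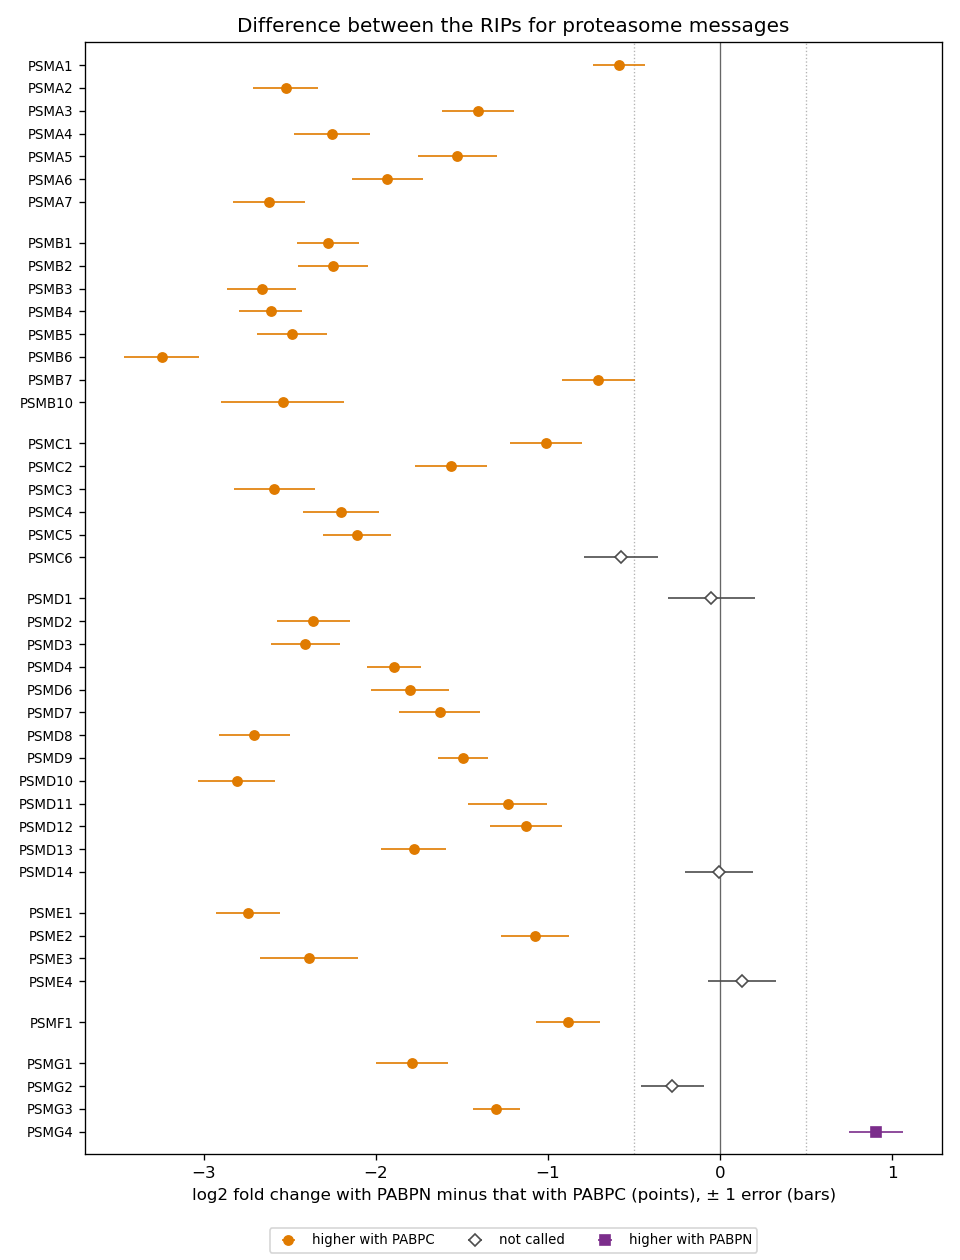
Difference of the log2 fold changes, PABPN minus PABPC, for each of the 43 members, with bars of 1 error of the difference; filled circles were called higher with PABPC, open diamonds were not called, and the square was called higher with PABPN. The members run from -3.24 in PSMB6 to 0.91 in PSMG4, and 37 of them were called higher with PABPC.

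The alpha ring is encoded by PSMA1 to PSMA7. All 7 messages were higher with PABPC in the test of the difference, 6 were depleted from PABPN and 6 enriched with PABPC. In the same order, the shares over all features were 33.4%, 14.6% and 38.4%. The medians were -0.90 with PABPN and 1.10 with PABPC. PSMA7 (20:62136733-62143440, minus strand, hg38) had the highest PABPC value of the family. Its mean of normalised reads was 4829 in input and 15936 in PABPC RIP, a log2 fold change of 1.72 (SE 0.148, adjusted p 3.21e-30), and it was 5643 in input and 3024 in PABPN RIP, a change of -0.90 (SE 0.15, adjusted p 1.73e-08). PABPC RIP thus held the most reads of this message and PABPN RIP the fewest, relative to the input of the same table.

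PSMA2 (7:42916828-42932185, minus strand) was the lowest alpha subunit with PABPN, at -1.24 (SE 0.126), and stood at 1.28 (SE 0.139) with PABPC. PSMA4 stood at -1.15 (SE 0.138) and 1.10 (SE 0.173), PSMA5 at -0.75 (SE 0.149) and 0.78 (SE 0.174), and PSMA6 at -0.60 (SE 0.137) and 1.33 (SE 0.152). These 4 were depleted from PABPN and enriched with PABPC, as PSMA7 was. PSMA3 was depleted from PABPN at -0.93 (SE 0.130), and its PABPC value of 0.48 (SE 0.167, adjusted p 0.00838) was just under the limit of 0.5. PSMA1 (11:14504874-14643635, minus strand), the longest alpha gene, was at -0.065 (SE 0.0947, adjusted p 0.632) with PABPN and just over the limit with PABPC, at 0.52 (SE 0.116). PSMA8, an alternative alpha subunit of the testis, had a mean of 4.60 normalised reads in the PABPN and 3.43 in the PABPC table and was not called. In GENCODE release 44, 81.0% of the exonic bases of PSMA1, 99.7% of PSMA6 and all of PSMA2 and PSMA3 lie within the span of another gene, and what this did to their values was not tested.

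The beta ring messages, PSMB1 to PSMB7, had medians of -0.97 with PABPN and 1.41 with PABPC. Of the 7, 6 were depleted from PABPN and enriched with PABPC, a pattern found in 10.8% of protein coding genes. Over all features 14.6% were depleted from PABPN and 38.4% enriched with PABPC. PSMB6 (17:4796144-4798502, plus strand), one of the catalytic subunits, had the lowest difference of the 43 members. Its mean was 2353 reads in input and 904 in PABPN RIP (log2 fold change -1.38, SE 0.155, adjusted p 1.21e-17), against 2013 in input and 7329 in PABPC RIP (1.86, SE 0.155, adjusted p 1.68e-32). The difference was -3.24 (error 0.219, adjusted p 1.72e-48). Its transcript carries the AATAAA hexamer shown above.

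The catalytic subunits did not share one value. PSMB5, the target of the drug bortezomib, had log2 values of -0.87 (SE 0.126) with PABPN and of 1.62 (SE 0.159) with PABPC, close to the other members of its ring. PSMB7 (9:124353465-124415444, minus strand) was called in neither comparison, at -0.42 (SE 0.156, adjusted p 0.0205) and 0.29 (SE 0.147, adjusted p 0.0749), and was called higher with PABPC only in the difference (-0.71, error 0.214, adjusted p 0.00149). PSMB7 has the longest span of the 8 beta genes tested, 62.0 kb, against 2.36 kb for PSMB6 and 18.7 kb for PSMB5. Among the structural beta subunits, the PABPN values were -0.97 (SE 0.119) for PSMB1, -1.24 (SE 0.137) for PSMB2, -1.25 (SE 0.142) for PSMB3 and -0.93 (SE 0.125) for PSMB4. In the same order the PABPC values were 1.31 (SE 0.137), 1.01 (SE 0.148), 1.41 (SE 0.144) and 1.68 (SE 0.132), so all 4 carried opposite calls.

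The alternative beta subunits PSMB8, PSMB9 and PSMB10 replace the catalytic ones in the immunoproteasome, which is induced by interferon, and PSMB11 is the subunit of thymic epithelium. PSMB10 (16:67934506-67936864, minus strand) was the one with enough reads, with means of 254 in input and 1091 in PABPC RIP. It was enriched with PABPC at 2.10 (SE 0.240, adjusted p 1.10e-17) and not called with PABPN, at -0.44 (SE 0.262, adjusted p 0.176), and 53.1% of its exonic bases lie within another gene. PSMB8 had means of 3.02 reads in input and 12.5 in PABPC RIP (2.04, SE 0.788, adjusted p 0.0167), under the limit of 50 and not called. PSMB9 had a mean of 2.78 reads in the PABPN and 4.38 in the PABPC table, and PSMB11 of 0.324 and 0.137. These 3 messages were too rare at this depth for a call.

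The ATPases PSMC1 to PSMC6 form the ring that unfolds substrates. Depletion from PABPN was called in 5 of the 6 and enrichment with PABPC in 4, with medians of -0.91 and 0.81. The shares over all features were 14.6% and 38.4%. PSMC3 (11:47418769-47426473, minus strand) was the lowest with PABPN and the highest with PABPC. Its mean was 3802 reads in input and 1470 in PABPN RIP (-1.37, SE 0.175, adjusted p 9.98e-14), and 3253 in input and 7583 in PABPC RIP (1.22, SE 0.158, adjusted p 4.17e-14). PSMC2 had log2 values of -0.91 (SE 0.134) with PABPN and of 0.65 (SE 0.160) with PABPC, PSMC4 of -1.23 (SE 0.156) and 0.97 (SE 0.155), and PSMC5 of -0.92 (SE 0.134) and 1.19 (SE 0.145). These carried the same opposite calls as PSMC3.

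PSMC1 and PSMC6 differed from the other ATPases in their calls. PSMC1 was depleted from PABPN at -0.82 (SE 0.141) but not called with PABPC, at 0.20 (SE 0.155, adjusted p 0.270). PSMC6 (14:52707178-52728590, plus strand) was not called with PABPN, at -0.16 (SE 0.135, adjusted p 0.378), nor with PABPC, at 0.42 (SE 0.169, adjusted p 0.0235). Of the exonic bases of PSMC1, 76.1% lie within the span of another gene in GENCODE release 44. The shares were 90.8% for PSMC2 and 61.9% for PSMC5. The authors removed stretches shared by genes in their own annotation, and which bases of these genes were removed was not tested. The deposited lengths of PSMC1 and PSMC5, 6129 and 4279 bases, equal their union of exons in release 44. That of PSMC2 is 3538 against 8637 bases. PSMA2 and PSMA3, with all exonic bases overlapped in release 44, still had 3134 and 2773 normalised reads in input of the PABPN comparison. With PSMC1, PSMC2 and PSMC5 left out, a choice made after seeing the data, the ATPase medians were -1.23 and 0.97.

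Of the non-ATPase subunits, PSMD1 and PSMD2 are the large scaffolds of the base and PSMD4 is a ubiquitin receptor. PSMD2 (3:184299198-184309050, plus strand) had the lowest PABPN value of the 43 members. Its mean was 8151 reads in input and 3110 in PABPN RIP (-1.39, SE 0.145, adjusted p 2.50e-20), and 6974 in input and 13688 in PABPC RIP (0.97, SE 0.155, adjusted p 1.17e-09). PSMD4 had log2 values of -0.80 (SE 0.108) with PABPN and of 1.10 (SE 0.114) with PABPC. PSMD1 (2:231056845-231173116, plus strand) went another way. Its mean was 9923 reads in input and 5384 in PABPN RIP (-0.88, SE 0.170, adjusted p 1.60e-06), and 8494 in input and 4776 in PABPC RIP (-0.83, SE 0.186, adjusted p 2.13e-05). Input therefore held more PSMD1 reads than either RIP, and this was the lowest PABPC value of the 43 members.

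The lid removes ubiquitin chains before degradation, and PSMD14 is its deubiquitinating enzyme. Of the 8 lid messages tested, 7 were depleted from PABPN and 6 enriched with PABPC, with medians of -0.73 and 0.79. These calls were made for 14.6% and 38.4% of all features. PSMD14 (2:161308425-161411717, plus strand) was depleted from both. Its mean was 7818 reads in input and 5211 in PABPN RIP (-0.59, SE 0.131, adjusted p 4.14e-05), and 6690 in input and 4475 in PABPC RIP (-0.58, SE 0.151, adjusted p 0.000282). PSMD14 and PSMD1 spanned 103 kb and 116 kb, while the other PSMD genes tested had spans up to 38.9 kb.

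The remaining lid subunits are structural. PSMD8 (19:38374563-38383850, plus strand) had the highest PABPC value of the PSMD family, 1.78 (SE 0.15), with -0.92 (SE 0.138) with PABPN. PSMD3 had log2 values of -1.10 (SE 0.136) with PABPN and of 1.31 (SE 0.146) with PABPC, PSMD6 of -1.18 (SE 0.146) and 0.62 (SE 0.174), and PSMD7 of -0.68 (SE 0.164) and 0.95 (SE 0.168). These 4 carried opposite calls, and 60.0% of the exonic bases of PSMD6 lie within other genes. PSMD12 did so by a narrow margin, at -0.61 (SE 0.125) and 0.51 (SE 0.167, adjusted p 0.00408). PSMD11 was depleted from PABPN at -0.78 (SE 0.144) and missed the PABPC limit at 0.45 (SE 0.181, adjusted p 0.0227), while PSMD13 was enriched with PABPC at 1.36 (SE 0.144) and missed the PABPN limit at -0.42 (SE 0.121, adjusted p 0.00182).

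Assembly chaperones help to build the particles and leave them afterwards. Among the 6 tested, 1 was depleted from PABPN, 1 was enriched with PABPN, 4 were enriched with PABPC and 1 was depleted from PABPC. In the same order, the shares over all features were 14.6%, 17.5%, 38.4% and 32.4%. The median of the 6 with PABPN was -0.054. PSMD10 (gankyrin) was depleted from PABPN (-1.13, SE 0.153) and enriched with PABPC (1.68, SE 0.165). PSMD9 was not called with PABPN, at -0.13 (SE 0.101, adjusted p 0.30), and was enriched with PABPC at 1.36 (SE 0.105), with 99.1% of its exonic bases within other genes. PSMD5, the remaining base chaperone with a PSM symbol, had means of 9.89 reads in the PABPN and 5.92 in the PABPC table. It was not called, although its PABPN value was 1.45 (SE 0.749, adjusted p 0.109).

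PSMG1 and PSMG2 act as a pair on the alpha ring, and PSMG3 and PSMG4 as another pair. PSMG3 (7:1567332-1571005, minus strand) had the highest value of the 43 members in both comparisons. Its mean was 1465 reads in input and 3087 in PABPN RIP (1.08, SE 0.0962, adjusted p 2.95e-27), and 1252 in input and 6494 in PABPC RIP (2.37, SE 0.100, adjusted p 8.92e-122), so input held the fewest reads in both tables. The antisense gene PSMG3-AS1 covers 27.0% of the exonic bases of PSMG3. It was enriched with PABPN at 0.79 (SE 0.255, adjusted p 0.00615) and not called with PABPC, at 0.48 (SE 0.276, adjusted p 0.121). The authors removed shared stretches from counting, so the values of both genes rest on the stretches that were left in their annotation.

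PSMG4 (6:3231403-3303373, plus strand) had the opposite order from its partner. Its mean was 2821 reads in input and 3692 in PABPN RIP (0.39, SE 0.104, adjusted p 0.000806, under the limit of 0.5), and 2411 in input and 1680 in PABPC RIP (-0.52, SE 0.116, adjusted p 1.88e-05). PABPN RIP held the most reads and PABPC RIP the fewest, and the difference of 0.91 (error 0.156, adjusted p 1.34e-08) was the highest among the members. PSMG1 was enriched with PABPC at 1.41 (SE 0.169) with -0.38 (SE 0.125) with PABPN, and its partner PSMG2 was called in neither, at 0.30 (SE 0.124) with PABPC and 0.028 (SE 0.135) with PABPN. The spans were 3.67 kb for PSMG3, 72.0 kb for PSMG4, 8.72 kb for PSMG1 and 70.9 kb for PSMG2.

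The activators open the core without ubiquitin. PSME1 and PSME2 together form PA28alphabeta, PSME3 forms the nuclear PA28gamma, and PSME4 is the large activator PA200. PSME1 (14:24136163-24138967, plus strand) was depleted from PABPN (-0.83, SE 0.143) and enriched with PABPC (1.92, SE 0.122), with means of 366 reads in input and 1381 in PABPC RIP. PSME2 (14:24143362-24147570, minus strand) was likewise enriched with PABPC at 1.37 (SE 0.149) but stood at 0.30 (SE 0.131, adjusted p 0.0538) with PABPN. These partner genes lie close together on chromosome 14 and differed in sign with PABPN, PSME2 without a call.

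PSME3 was depleted from PABPN (-0.67, SE 0.187) and enriched with PABPC (1.72, SE 0.212). PSME4 (2:53864069-53970993, minus strand), with a span of 107 kb, was at -0.37 (SE 0.134, adjusted p 0.0158) with PABPN and just past the limit with PABPC, at -0.50 (SE 0.148, adjusted p 0.00146). PSMF1, an inhibitor of the core also called PI31, was depleted from PABPN at -0.61 (SE 0.122) and not called with PABPC, at 0.27 (SE 0.140, adjusted p 0.0801).

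Set side by side, the core, ATPase and non-ATPase families overlapped widely. Core genes (15) had a median of -0.93 with PABPN, from -1.38 to -0.065, and of 1.31 with PABPC, from 0.29 to 2.10. The ATPase genes (6) had medians of -0.91 and 0.81, with ranges from -1.37 to -0.16 and from 0.20 to 1.22. The non-ATPase genes (13) had medians of -0.80 and 0.97, with ranges from -1.39 to -0.13 and from -0.83 to 1.78. All 15 core genes, 5 of the 6 ATPase genes and 11 of the 13 non-ATPase genes were called higher with PABPC in the test of the difference. That call was made for 33.4% of all features and 37.8% of protein coding genes. No test between families was made, since genes are not replicates.

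The 31 constitutive subunits of the core and regulatory particle with a PSM symbol are parts of one complex in fixed proportions, and their messages were compared on that basis. Subunits with other symbols, such as ADRM1, are not among them. Of the 31 genes, 27 were depleted from PABPN and none had a value above 0, while 24 were enriched with PABPC and 2 depleted, by the DESeq2 adjusted p. Over all features 14.6% were depleted from PABPN, 38.4% enriched with PABPC and 32.4% depleted from PABPC. The shares of protein coding genes were 16.5%, 41.2% and 27.9%. The SD of the log2 fold change over the 31 genes was 0.34 with PABPN and 0.63 with PABPC, against 0.64 and 1.28 over protein coding genes, and a single gene had a median SE of 0.137 and 0.155. In input, normalised reads per kb of deposited gene length ran from 194 for PSMC1 to 3875 for PSMB7, a range of 20-fold with a median of 1005, against a median of 297 for protein coding genes. The definition of that length is not given in the sources used here, and for some members it is far from the union of exons in GENCODE release 44 (5187 against 15795 bases for PSMD1), so these levels per kb are rough. Intronic reads are in the count.

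Gene span, which includes introns, varied with the PABPC values. The rank correlation over the 43 members was -0.78, and over 12450 protein coding genes it was -0.77. Intron length gave -0.72 and -0.76, and the deposited length gave -0.64 over members and -0.48 over protein coding genes. With PABPN the sign differed, as span gave 0.35 over members and -0.14 over protein coding genes. These are descriptions over genes that share the same libraries, depth and intron counting, with no test.

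**Figure D3:**
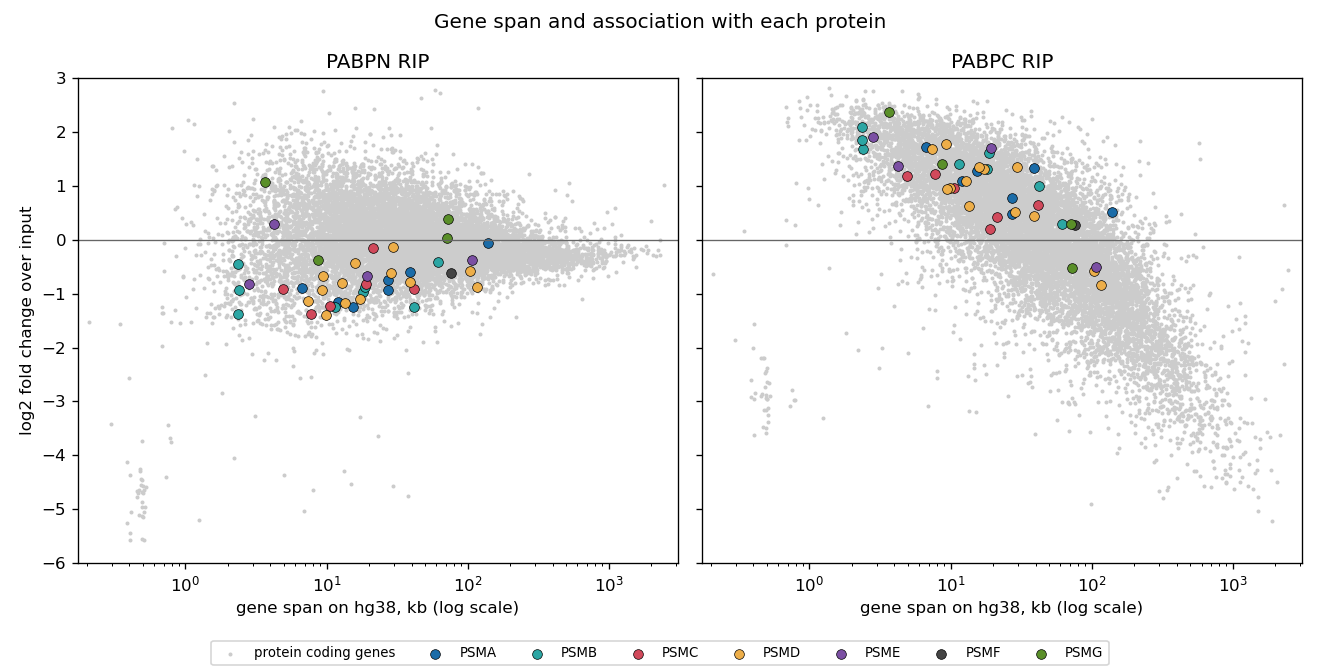
Log2 fold change over input against gene span in kb (log scale) for PABPN (left) and PABPC (right); coloured points are the 43 members by family and grey points are protein coding genes. With PABPC the members follow the downward slope of the grey points (rank correlation -0.78 and -0.77), and with PABPN most members lie below 0 at every span.

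Members were also grouped by span, a description added after the values were seen. All 14 members of up to 10 kb were enriched with PABPC, 14 of 17 between 10 and 30 kb, and 4 of 12 over 30 kb, against 87.8%, 64.6% and 16.1% of the protein coding genes in the same bins. The 4 members depleted from PABPC, PSMD1, PSMD14, PSME4 and PSMG4, all had spans over 30 kb. The 4 enriched members over 30 kb were PSMA1, PSMA6, PSMB2 and PSMC2, and PSMA1 had the longest span of all members, 139 kb. Depletion from PABPN was called in 10 of 14, 14 of 17 and 7 of 12 members, against 28.7%, 17.6% and 13.2% of protein coding genes. Median PABPN values were -0.91, -0.87 and -0.59 for the members, and -0.041, 0.070 and -0.15 for protein coding genes. In each bin the members' share depleted from PABPN was thus above that of protein coding genes. Input level was not held equal in these bins. The rank correlation of the PABPN value with input reads was -0.22 over members and -0.29 over protein coding genes. What input level did to the shares was not tested.

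**Figure D4:**
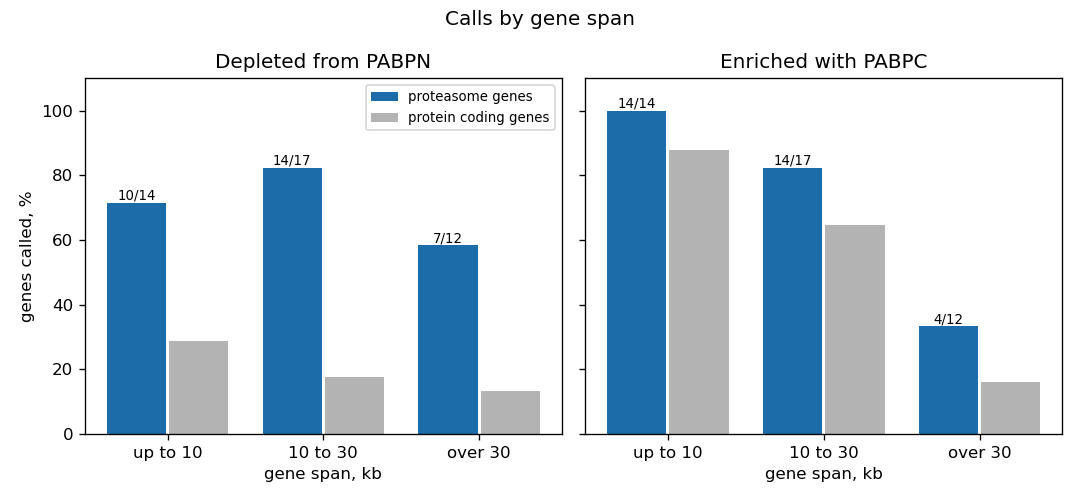
Share of genes called depleted from PABPN (left) and enriched with PABPC (right) in 3 bins of gene span, for members (blue, counts above the bars) and protein coding genes (grey). The grey bars fall from 87.8% to 16.1% with PABPC, and the members' share with PABPN stays above the grey bar in each bin.

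Bins of the deposited length, whose definition is not given in the sources used here, were compared in the same way. Depletion from PABPN was called in 5 of 8 members between 1000 and 2000 bases, 10 of 14 between 2000 and 4000, and 16 of 21 above 4000, against 35.5%, 22.1% and 12.7% of protein coding genes. Enrichment with PABPC was called in 7 of 8, 12 of 14 and 13 of 21, against 75.0%, 62.4% and 29.6%. Within the span bins the families could be set side by side. Up to 10 kb, the median PABPC value was 1.79 for 4 core genes, 1.21 for 2 ATPase genes and 1.33 for 4 non-ATPase genes. Between 10 and 30 kb it was 1.28 for 7 core, 0.42 for 3 ATPase and 1.20 for 6 non-ATPase genes. Over 30 kb it was 0.77 for 4 core genes, 0.65 for the single ATPase gene PSMC2 and -0.58 for 3 non-ATPase genes, 2 of which are PSMD1 and PSMD14.

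Genes that work beside the proteasome were taken from a list of 25 that covers further subunits, chaperones, ubiquitin genes, shuttle factors and regulators. With PABPN 12 were depleted (14.6% over all features, 16.5% of protein coding genes) and 0 enriched by the DESeq2 adjusted p, and of the 3 with a value above 0 none had an unadjusted p under 0.05. With PABPC 12 were enriched, near the background of 38.4% over all features and 41.2% of protein coding genes, and 3 depleted (32.4% and 27.9%). The medians of the list were -0.40 with PABPN and 0.48 with PABPC. UBQLN4, a shuttle factor, was the highest with PABPN, at 0.22 (SE 0.133, adjusted p 0.176). The lowest with PABPC was UBE3C, a ubiquitin ligase, at -0.79 (SE 0.134). ADRM1, a ubiquitin receptor of the base, and POMP, the chaperone of beta ring assembly, carried opposite calls like most members, with -0.67 (SE 0.20) and -1.16 (SE 0.15) with PABPN and 1.54 (SE 0.192) and 1.43 (SE 0.181) with PABPC. NFE2L1 did so as well, at -0.58 (SE 0.0971) and 0.96 (SE 0.0952).

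NFE2L1 binds the antioxidant response element, whose letters TGACNNNGC were searched on both strands in the RefSeq promoters of GRCh38.p14, from 250 bases before to 50 after the gene start. Promoters were matched for 42 of the 48 members, and 13 held a match (31.0%), against 13.6% of all 27305 promoters and 14.8% of 10150 promoters of protein coding genes past the read limit. By family there were matches in 0 of 7 PSMA, 2 of 8 PSMB, 1 of 6 PSMC, 5 of 13 PSMD, 3 of 4 PSME, 0 of 1 PSMF and 2 of 3 PSMG promoters. A match is a run of letters, and binding was not measured. For illustration, 3 matches on the strand of the gene are shown, with the matched letters in capitals: PSMB3 at chr17:38752627-38752655 on the plus strand, PSMD3 at chr17:39980760-39980788 on the plus strand, and PSMD12 at chr17:67366724-67366752 on the minus strand.
PSMB3: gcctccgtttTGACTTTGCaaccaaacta
PSMD3: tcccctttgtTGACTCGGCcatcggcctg
PSMD12: agacaaaaccTGACGCTGCaggctggagt
These 3 are examples and do not stand for the 13. Of the 13 members with a match, 5 were depleted from PABPN and enriched with PABPC (PSMB3, PSMC4, PSMD3, PSMD12 and PSME1), 1 was depleted from both (PSMD1), 1 was depleted from PABPC only (PSME4), 3 were enriched with PABPC only (PSMD9, PSME2 and PSMG1), PSMG2 was called in neither, and PSMB9 and PSMD5 were under the read limit.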

How the data were processed

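Total RNA of 3 input, 3 PABPN RIP and 3 PABPC RIP libraries was analysed from 2 deposited tables of 6 libraries each, grouped by sample title. The authors aligned 75 nt single-end reads of a stranded kit to hg38 with STAR, counted introns and exons with featureCounts 2.0.2 (minimum overlap 20 bases) on an annotation from GENCODE release 34, and removed stretches shared by genes, and genes with upstream transcription. The authors compared each RIP with input in DESeq2. The design formula is not given in the sources used here.

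The signal deposited by the authors, baseMean, is the mean of counts over size factors. The log2 fold change and its standard error, the Wald statistic (a score) and the Wald p-value with its adjusted value were deposited by the authors too. These are the authors' own comparisons, and no counts per library were analysed here. Values are printed from the authors' deposited tables.

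From these, with Python 3.11.15, pandas 2.3.3, numpy 2.4.6 and scipy 1.17.1, the first of 123 repeated rows per table was kept, group means were computed from baseMean and fold change, and the difference between the RIPs was tested across all genes. Input means of the tables differed by 0.23 on the log2 scale (SD 0.0023), so levels are compared within a table. The calling step was run on values simulated with independent normal errors of the size that the test assumes. The shared input was left out of the simulation, so it cannot show the error rate in these data. Estimated depths, from the values of genes with 1 read, were 36.5 to 52.2 M reads counted on the listed genes, with a median SE of 0.137 for PABPN and 0.141 for PABPC. Cut-offs are those of the study. Spans and coordinates are from GENCODE release 44 on hg38.

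The members and lists were chosen with earlier results of these data known. Every member could be named, with the extremes of each family, members below the read limit and extremes of the list of other genes, of which some are not reported here. The alternatives tried were other cut-offs, read limits, centring, repeated rows and removal of members.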

Additional observations from a re-analysis of the deposited data

How the results depend on the processing

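Counts of called members depended on the cut-off. With a log2 cut-off of 1, 11 members were depleted from PABPN and 0 from PABPC by the deposited adjusted p. With a Wald test of a change beyond 0.5 there were 13 and 0, in place of 31 and 4. Enrichment with PABPC was called in 24 and 26 members at these settings, in place of 32. It was called in 29 when centred on the median of all genes. The shares over all features at these settings were not computed. With a difference beyond 1, 0 members were higher with PABPN by the normal test, in place of PSMG4. With the shared input variance taken out, or centred, 38 members were higher with PABPC in place of 37, PSMC6 being added. Centred on the median of protein coding genes, the PABPC medians were 0.85 over members, 1.06 for core, 0.56 for ATPase and 0.72 for non-ATPase genes. Without the 10 members of whose exonic bases over 50% lie within another gene (chosen after seeing the data), the ATPase medians were -1.23 with PABPN, 0.97 with PABPC and -2.20 for the difference. The rank correlation of length with PABPN over members was 0.24 with the deposited length and turned to -0.093 with coding length, and that with PABPC went from -0.64 to -0.45. The cause of these shifts was not tested. Of 102 values under an alternative, 88 moved by less than 1.5 times for counts or less than 1 median SE for medians, and by less than 0.15 for correlations. No paired analysis was possible because the tables hold no values per library, and for the same reason no replicate could be left out. PSMB8, PSMB9, PSMB11, PSMA8 and PSMD5 were limited by depth.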

Other observations

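Some non-coding genes beside the members had values unlike those of their neighbours, namely PSMD6-AS2 and PSMD7-DT. PSMG3-AS1, given above, had the same signs as PSMG3, at 0.79 with PABPN and 0.48, without a call, with PABPC. PSMD6-AS2, a non-coding gene that overlaps PSMD6, was depleted from PABPC at -2.80 (SE 0.203) and not called with PABPN, at 0.19 (SE 0.122), while PSMD6 itself was enriched with PABPC. The difference between the RIPs was 2.99 (error 0.237, adjusted p 2.19e-35), higher with PABPN. PSMD7-DT, a divergent transcript beside PSMD7, was likewise depleted from PABPC at -2.52 (SE 0.326) and stood at -0.18 (SE 0.249) with PABPN. PSMB8-AS1 and PSMD6-AS1 had under 50 mean reads.

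Of the pseudogenes named after members, 35 were listed. The highest mean was 9.88 reads in the PABPN and 14.2 in the PABPC table, and 12 and 11 of them were at 0, so none could be called.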
